A study of Mus musculus with 30 samples.

Results

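H3K27me3, the trimethylation of histone H3 at lysine 27, was compared between mouse progenitor cells that had been without estradiol (E2) for 40 h and cells that had been without it for 72 h. The members were all domains of the H3K27me3 lists of these 2 conditions, 3845 domains at 40 h and 5166 at 72 h, together 9011 of the 306247 peaks in the 16 histone mark lists of the cell line. A domain was called 40 h-only or 72 h-only if no domain of the other list overlapped it by 1 bp, and overlapping domains of both lists were joined into shared loci. No measured value other than position entered this rule.

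The cells, ER-Hoxa9-Lys-GFP cells of C57BL/6 origin, were grown in culture in medium with stem cell factor and carry ER-HOXA9, the transcription factor HOXA9 joined to the hormone-binding part of the estrogen receptor, which is active while E2 is present. In the 40 h condition E2 was withdrawn for 40 h and then restored for 80 h, and in the 72 h condition it was withdrawn for 72 h and then restored for 48 h. The other conditions of the mark were E2 throughout, withdrawal for 24 h with 96 h of restored E2 (called 24 h), and withdrawal for 120 h with no restoration (called 120 h). H3K27ac was also profiled after 56 h of withdrawal and 64 h of restored E2 (called 56 h). The title of the series places the conditions on either side of an irreversible commitment to myeloid differentiation. Withdrawal and restoration added up to 120 h in every withdrawn condition, so the lists are parallel end points named by their withdrawal and not successive times. The longer withdrawal came with the shorter restoration, and their effects cannot be told apart. Each condition had 1 library of each mark and the sources do not say whether the line is 1 clone, so differences cannot be set against a replicate spread, and no p-value is given. The 95% intervals in parentheses (exact Clopper-Pearson for shares, Newcombe for differences of shares) cover counting error only, and neighbouring domains are not independent.

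H3K27me3 is written by Polycomb repressive complex 2, whose catalytic subunit is EZH2 or EZH1 and whose core also holds EED and SUZ12. EED binds the finished mark and stimulates the enzyme, so that the mark can extend over neighbouring nucleosomes and form broad domains. The demethylases KDM6A and KDM6B remove it. In blood progenitors the mark lies at silent developmental genes and at genes of other lineages, and one lysine cannot carry it together with H3K27ac, the acetylation found at active promoters and enhancers.

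The 40 h list had the fewest domains of the 5 H3K27me3 lists and the 120 h list the most. The lists held 4354, 5125, 3845, 5166 and 6927 domains in the order E2, 24, 40, 72 and 120 h, which covered 5.47, 9.10, 6.08, 8.06 and 12.9 Mb. The order of the numbers thus did not follow the length of withdrawal. The median domain was 976 bp wide at 40 h and 903 bp at 72 h, and the widest was 16977 bp and 20031 bp. The read depth of the libraries is unknown, and its part in the number of domains was not tested. The progenitor and myeloid character of the cells was checked in the H3K4me3 lists, a mark of active promoters: in both conditions 10 of 12 markers carried it no more than 1 kb from a gene end, among them Ptprc, Cebpa, Runx1, Kit, Cd34 and Mpo. Over all protein-coding genes 44.7% carried it there at 40 h and 45.8% at 72 h. No peak was listed there for Lyz2 or Spi1 in these 2 conditions. Of 5 erythroid and megakaryocyte markers, 3 were marked in both, Klf1 (454 and 451 bp), Epor (569 and 305 bp) and Pf4 (345 and 370 bp), while Gata1 and Itga2b were at 0. Of 3 B cell markers 1 was marked, Ebf1 (1525 and 411 bp), and Pax5 was at 0. All 3 T cell markers and 4 of 5 fibroblast and epithelial markers were at 0, Pdgfrb being the exception (411 and 225 bp). The part of other cell types in the H3K27me3 lists was not tested.

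Most of the 40 h list was present at 72 h, whereas a larger share of the 72 h list had no counterpart at 40 h. Of the 3845 domains at 40 h, 490 were 40 h-only (12.7%, 11.7 to 13.8). Of the 5166 domains at 72 h, 1965 were 72 h-only (38.0%, 36.7 to 39.4). By length, the 40 h-only domains made up 3.35% of the 40 h list and the 72 h-only domains 14.3% of the 72 h list, or 0.204 Mb and 1.15 Mb. The number of 72 h-only domains was the higher on all 20 chromosomes, and so was their share. With both lists held to their 3845 widest domains the shares were 21.6% at 40 h and 27.4% at 72 h, and with 50% of a domain covered as the rule they were 21.7% and 50.7%. In the domains above the median width of their list they were 8.43% and 33.0%. The rule has a sharp edge: the closest one-list domain lay 1 bp from a domain of the other list in both directions, and the smallest overlap that made a domain shared was 1 bp at 40 h and 9 bp at 72 h.

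One-list domains were narrow, and the wide ones belonged to the 72 h list. The median width was 326 bp for 40 h-only domains and 460 bp for 72 h-only domains, against 1189 bp and 1588 bp for the shared domains of the 2 lists. Among domains under 500 bp, 331 of 1073 at 40 h (30.8%, 28.1 to 33.7) and 1078 of 1558 at 72 h (69.2%, 66.8 to 71.5) were in their list only. Among domains of 1000 to 2000 bp the shares were 16 of 859 (1.86%, 1.07 to 3.01) and 237 of 1105 (21.4%, 19.1 to 24.0). Of the domains of 2000 bp or more, 0 of 1041 at 40 h were missing at 72 h, while 44 of 1330 at 72 h (3.31%, 2.41 to 4.42) were missing at 40 h. At each width, then, a 72 h domain was the more often without a counterpart. The widest 40 h-only domain measured 1895 bp and the widest 72 h-only domain 4820 bp.

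**Figure D1:**
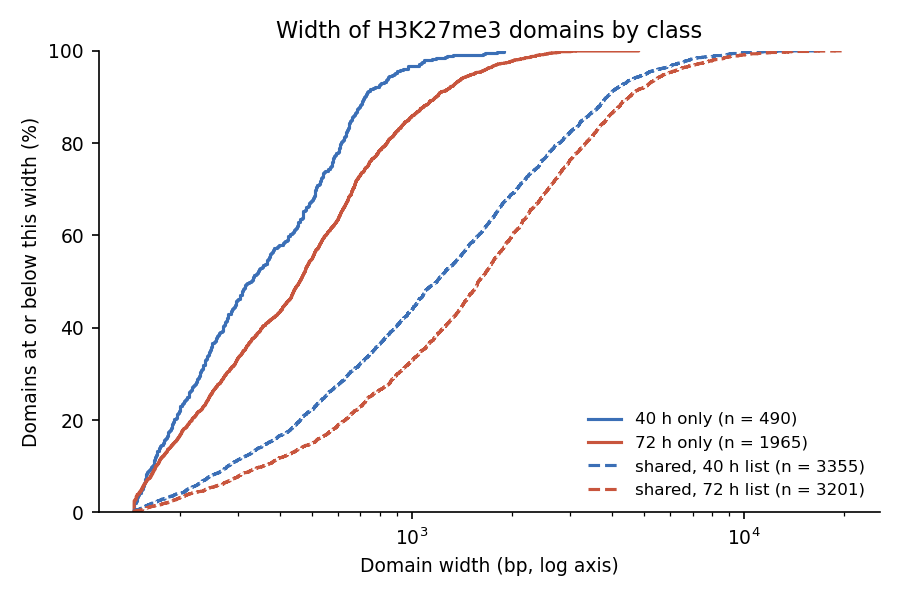
Share of domains (y axis, percent) at or below each width (x axis, bp, log axis) for 40 h-only and 72 h-only domains (solid) and for shared domains of each list (dashed). The 40 h-only curve ends at 1895 bp and the 72 h-only curve at 4820 bp. Their medians, 326 bp and 460 bp, lie left of those of the shared domains, 1189 bp and 1588 bp.

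The 3 lists that the rule did not use showed where these domains stood in the other conditions. The 40 h-only domains were mostly found at 24 h: 342 of 490 (69.8%) had a domain there, against 829 of 1965 (42.2%) of the 72 h-only domains. The difference was -27.6 points (-32.1 to -22.9), and 40 h-only domains had the higher share on 20 of 20 chromosomes. At 120 h the order turned, with 63.3% (58.8 to 67.5) of the 40 h-only and 76.8% (74.9 to 78.6) of the 72 h-only domains found, a difference of 13.5 points (8.96 to 18.2), the 72 h-only share being the higher on 17 of 20 chromosomes. In E2 both shares were low, 30.2% for 40 h-only and 24.7% for 72 h-only domains, a difference of -5.47 points (-10.1 to -1.11), with the 40 h-only share the higher on 13 of 20 chromosomes. Shared domains were found in E2, at 24 h and at 120 h in 82.7%, 95.5% and 97.9% of cases, counted in the 72 h list.

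Width enters these shares, since a wide domain meets others more easily. Within 500 to 1000 bp, 83.2% of the 143 40 h-only domains and 46.0% of the 606 72 h-only domains were found at 24 h, and 67.8% and 82.3% at 120 h. The differences, -37.2 points (-43.7 to -29.1) and 14.5 points (6.71 to 23.0), had the direction of those over all widths. The same held under 500 bp, with -25.4 points (-31.1 to -19.3) at 24 h and 7.48 points (1.62 to 13.5) at 120 h. The difference in E2 was -6.09 points (-11.7 to -0.783) under 500 bp, -4.49 points within 500 to 1000 bp, with an interval that included 0 (-13.1 to 3.31), and -25.9 points (-47.2 to -2.00) within 1000 to 2000 bp, where there were 16 40 h-only domains. The 120 h list overlapped 44 of the 44 72 h-only domains of 2000 bp or more, but also 1285 of the 1286 shared 72 h domains of that width. In E2 the shares were far apart, with 12 found (27.3%) against 1242 of the 1286 shared ones (96.6%, 95.4 to 97.5).

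**Figure D2:**
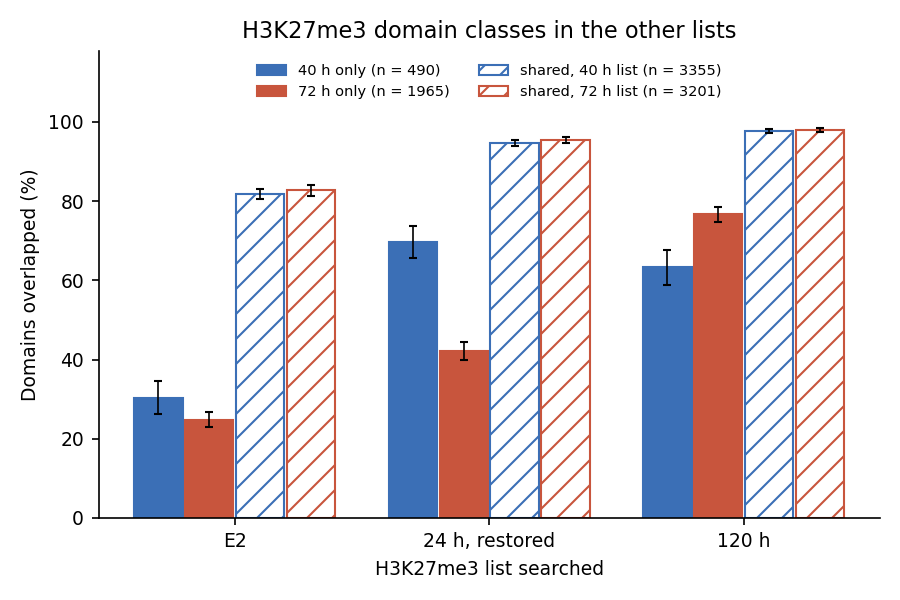
Share of domains (y axis, percent) overlapped by a domain of the E2, 24 h or 120 h list (x axis), for one-list domains (filled) and shared domains (hatched), with 95% Clopper-Pearson intervals as error bars. The 40 h-only bar is the higher at 24 h (69.8% against 42.2%) and the 72 h-only bar at 120 h (76.8% against 63.3%).

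Taken over all 3 lists at once, the largest group of 72 h-only domains was absent in E2 and at 24 h and present at 120 h. This group held 703 of 1965 domains (35.8%, 33.7 to 37.9), with a median width of 504 bp and 457 kb in all, and it included 21 of the 44 domains of 2000 bp or more. A further 389 (19.8%) were found at 24 h and 120 h and not in E2. Another 297 (15.1%, 13.6 to 16.8) were present in E2, at 24 h and at 120 h and so missing at 40 h alone, and 285 (14.5%) were found in none of the 3. Among 40 h-only domains the group absent in E2 and at 24 h and present at 120 h held 63 of 490 (12.9%, 10.0 to 16.1). The largest groups there were 128 domains (26.1%) found at 24 h and 120 h, 102 (20.8%, 17.3 to 24.7) missing at 72 h alone and 92 (18.8%) found at 24 h and in neither E2 nor 120 h. The shared domains differed from both, with 2564 of 3201 in the 72 h list (80.1%) present in every one of the 5 lists.

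By length, the 120 h list covered 75.4% of the sequence in 72 h-only domains, the 24 h list 28.7% and the E2 list 15.3%. For 40 h-only domains the figures were 53.3%, 61.7% and 23.4%. Where one-list domains met a domain at 24 h or 120 h, that domain was mostly wider than they were. Only one-list domains count in the 40 h and 72 h lengths given next. Shared domains under the same 24 h or 120 h domain are left out, so the ratios can be too high for the whole place. Over 1406 such places the median was 543.5 bp in 72 h-only domains and 1314 bp in 120 h domains, a median log2 ratio of 1.01. By this measure 704 places (50.1%) were at least 2-fold wider at 120 h and 54 at least 2-fold narrower. For 40 h-only domains at 120 h the medians were 367 bp and 947.5 bp over 308 places, a median log2 ratio of 1.24, with 57.5% at least 2-fold wider. At 24 h, 336 places of 40 h-only domains had medians of 385.5 bp and 1060.5 bp, and 804 places of 72 h-only domains 530.5 bp and 821.5 bp. A greater width elsewhere, measured against one-list domains alone, was thus common to both classes. In E2 the domains that met 72 h-only domains had about the same median width as these, 468.5 bp against 499 bp over 484 places.

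**Figure D3:**
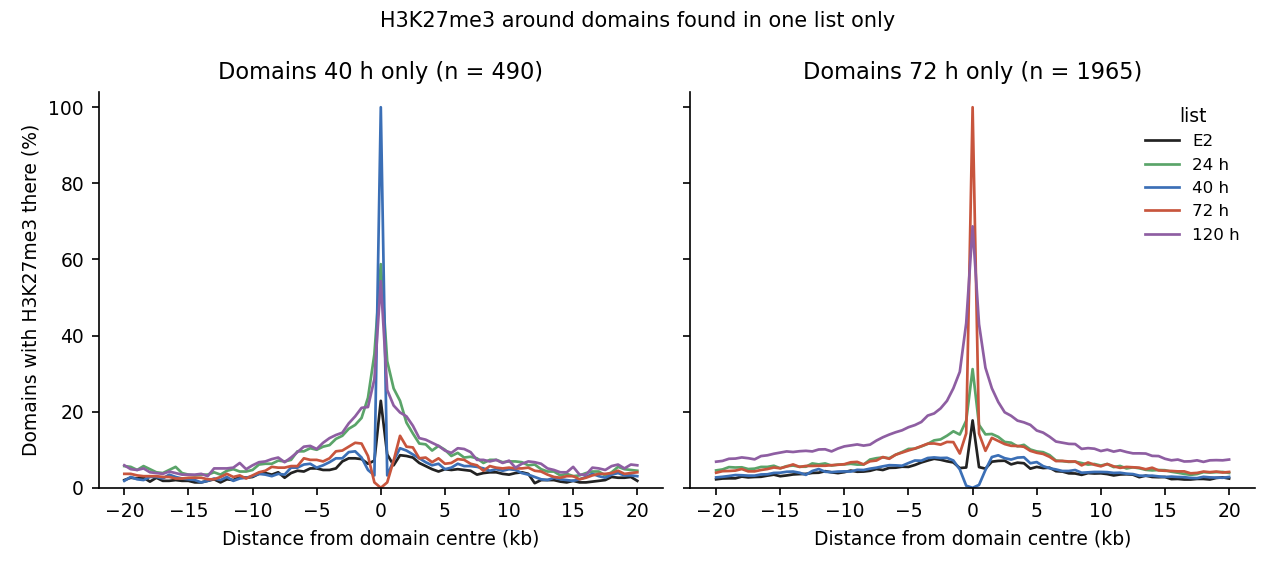
Share of 40 h-only (left) and 72 h-only domains (right) with H3K27me3 at each distance from the domain centre (x axis, kb), one line per list (y axis, percent). At the centre of 72 h-only domains the 120 h list reaches 68.7%, the 24 h list 31.2% and the E2 list 17.7%. At the centre of 40 h-only domains the 24 h list reaches 58.8% and the 120 h list 54.3%.

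The 8 widest 72 h-only domains had no H3K27me3 in E2, and each was covered along its whole length at 120 h. The widest, chr7:151634254-151639073 in the mm9 genome (4820 bp), was at 0 bp in the E2, 24 h and 40 h lists and was fully covered, over 4820 bp, in the 72 h and 120 h lists. The third widest, chr7:151639722-151642740 (3019 bp), lay beside it with the same pattern of values. Both were at 0 bp of H3K27ac in all 6 lists of that mark. Of the 8, the second widest, chr11:70548343-70551452 (3110 bp, 920 bp covered at 24 h), and the eighth, chr6:96968024-96970782 (2759 bp, 307 bp covered at 24 h), had some H3K27me3 in the 24 h list. The domain ranked 5 in width, chr2:164757261-164760051 (2791 bp), lay 0.848 kb from a 40 h domain, and those ranked 4, 6 and 7 lay 258, 409 and 230 kb from the nearest one.

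Of these 8 domains, 3 held H3K27ac in E2 or in lists of shorter withdrawal. They had no H3K27me3 in E2, at 24 h or at 40 h, and there was no 56 h list of that mark. At chr5:147394755-147397764 (3010 bp), the fourth widest, the H3K27ac length was 1982, 2247, 2254 and 804 bp in the E2, 24, 40 and 56 h lists. It was 0 bp in the 72 h and 120 h lists, in which H3K27me3 covered all 3010 bp. At chr8:35871023-35873809 (2787 bp), the sixth, the H3K27ac length was 2396 bp in the E2 list, 2095 bp in the 24 h list and 0 bp in the other 4 lists, while H3K27me3 was absent at 40 h and complete at 72 h. This place therefore carried a peak of neither mark at 40 h. At chr1:166387030-166389792 (2763 bp), the seventh, 288 bp of H3K27ac were listed in E2 and 0 bp in the other 5 lists. The 56 h H3K27ac list held 6356 peaks, against 24930 to 48710 in the others, and low values at 56 h are read with that in view.

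The 8 widest 40 h-only domains had H3K27me3 in other conditions too, and H3K27ac in none. All 8 had H3K27me3 at 24 h, and 7 had it at 120 h. The widest, chr8:127847509-127849403 (1895 bp), had 1030 bp in the 24 h list and 1895 bp in the 40 h list, and 0 bp in the other 3 lists. The second, chr2:3262101-3263899 (1799 bp), was at 0 bp in E2 and had 1799 and 1355 bp in the 24 h and 120 h lists. The eighth, chr8:12383043-12384299 (1257 bp), was covered in full in E2 and at 24 h and over 992 bp at 120 h. Apart from the widest, these domains were thus present at 24 h and at 120 h and missing in the 72 h list. Of the 8, those ranked 2, 3, 5 and 7 lay within 1 kb of a 72 h domain, the last of these at 0.023 kb.

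The shared loci numbered 3040 and were slightly wider at 72 h. They covered 5.88 Mb at 40 h and 6.91 Mb at 72 h, a ratio of 1.17, with a median per locus of 1352 bp and 1690 bp. The log2 of the ratio between the 72 h and the 40 h length had a median of 0.18 (0.16 to 0.20, order statistics), or 1.13-fold, and the median was above 0 on all 20 chromosomes (0.03 to 0.31). In all, 2047 loci (67.3%) were wider at 72 h and 988 narrower. At least 2-fold wider were 477 loci (15.7%), and at least 2-fold narrower were 171 (5.62%). These numbers were 75 and 14 for domains above the median width, and with both lists held to 3845 domains 67 loci were at least 2-fold narrower. Holding the lists to 3845 took narrow domains from the 72 h list alone, which can lower the number of narrower loci. Within these loci the 5 lists covered 4.63, 6.39, 5.88, 6.91 and 7.12 Mb, in the order used above. The loci are bounded by the 40 h and 72 h domains, so what other lists covered beyond them is not in these sums. The 24 h value lay above the 40 h value here too.

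**Figure D4:**
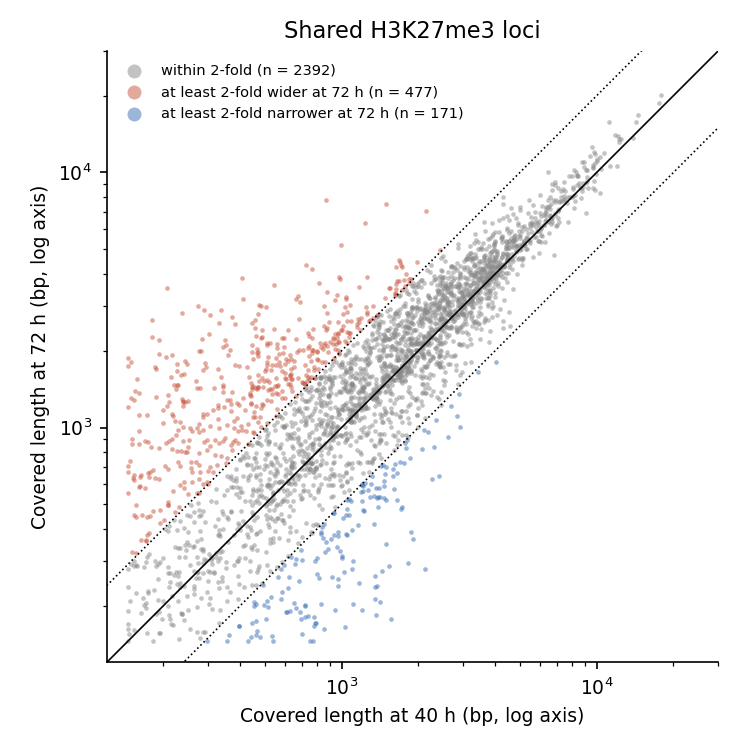
Covered length of each shared locus at 40 h (x axis, bp, log axis) and at 72 h (y axis, bp, log axis); the solid line marks equal lengths and the dotted lines a 2-fold difference. Of 3040 loci, 477 lie above the upper dotted line and 171 below the lower one, and both groups thin out toward long loci.

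The ratio was most spread at short loci. With loci sorted by the geometric mean of both lengths, those of 500 to 1000 bp (668 loci) had a median log2 ratio of 0.28 (0.19 to 0.39), with 191 at least 2-fold wider and 77 at least 2-fold narrower at 72 h. Loci of 2000 to 5000 bp (901) had a median of 0.14 (0.12 to 0.18), with 31 and 2. Among the 220 loci of 5000 bp or more the median was 0.11 (0.07 to 0.15), 75.9% were wider at 72 h and 0 differed by 2-fold. Loci of 5000 bp or more by this mean therefore kept their length to within 2-fold, and most 2-fold differences fell in the lower size classes. The mean moves a locus that is long in 1 list only into a lower class. A locus of 870 bp at 40 h and 7800 bp at 72 h is an example, so long 72 h domains could differ by more than 2-fold.

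Loci with several domains at 40 h and 1 at 72 h numbered 258, and the reverse was seen at 120. In the first kind the median covered length was 2514.5 bp at 40 h and 3788 bp at 72 h, so that stretches between neighbouring 40 h domains lay inside a single 72 h domain. In 2635 loci each list had 1 domain. There both edges lay further out at 72 h in 1098 loci (41.7%) and further in at 370 (14.0%), and in 1148 the 2 edges moved the same way along the chromosome. The median edge differed by 132 bp in either direction. Edges more than 1000 bp further out at 72 h numbered 265 of 5270, and edges more than 1000 bp further in numbered 48.

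Most loci that were at least 2-fold wider at 72 h were covered at 120 h, inside their bounds, over a length nearer to that at 72 h. Lengths in E2, at 24 h and at 120 h were counted only inside these bounds, which the 40 h and 72 h domains set. A 120 h domain reaching past a locus could thus count as equal to the 72 h length. The shares below therefore do not compare whole domain widths. The loci were also sorted by the same 40 h and 72 h lengths that the shares use. An extreme length in the 40 h or the 72 h library can thus raise or lower a share through the choice alone. The median covered length of the loci at least 2-fold wider was 534, 903, 452, 1569 and 1463 bp from E2 to 120 h. The length at 120 h was nearer to that at 72 h than to that at 40 h in 435 of the 477 (91.2%), the length at 24 h in 244 (51.2%) and the length in E2 in 108 (22.6%). Among the 2392 loci within 2-fold the same shares were 66.1%, 48.2% and 39.2%. For the 171 loci at least 2-fold narrower at 72 h the medians were 277, 919, 1043, 332 and 766 bp from E2 to 120 h, and the length at 120 h was nearer to that at 72 h in 57 (33.3%). Most of these loci were thus nearer at 120 h to their 40 h length.

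Among shared loci of at least 2000 bp in one list and 500 bp in the other, the largest ratio was at chr1:74846737-74854536 (7800 bp). H3K27me3 lengths there were 0, 161, 870, 7800 and 7800 bp from E2 to 120 h, 8.97-fold more at 72 h than at 40 h. H3K27ac lengths at this place were 1447, 1462 and 325 bp in the E2, 24 h and 40 h lists and 0 bp in the other 3. The locus thus had both marks listed at 40 h. The third largest, chr4:136388963-136393316 (4354 bp), went with 0, 0, 724, 4354 and 4354 bp of H3K27me3. Its H3K27ac lengths were 1560, 366 and 188 bp in the E2, 24 h and 40 h lists and 0 bp in the other 3. The sixth, chr8:125931498-125936670 (5173 bp), went with 620, 921, 991, 5173 and 5173 bp of H3K27me3 in the order E2, 24, 40, 72 and 120 h, and with 521, 390 and 221 bp of H3K27ac in the same 3 lists and 0 bp in the others.

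The second largest ratio was of another kind. At chr17:35847060-35850684 (3625 bp) H3K27me3 lengths were 2556, 3609, 545, 3625 and 3625 bp from E2 to 120 h, so that the 40 h list alone was low. At chr10:62184968-62187923 (2956 bp), the fourth, the 72 h value of 2956 bp was the highest, with 356, 0, 505 and 1583 bp in E2 and at 24, 40 and 120 h. Of the 6 loci with the smallest ratios, all of 2262 to 2920 bp, none had H3K27ac in any list. The smallest, chr7:152141460-152143898 (2439 bp), had 1802, 2190, 2405, 646 and 2439 bp of H3K27me3 in E2 and at 24, 40, 72 and 120 h, 3.72-fold less at 72 h than at 40 h. In each of these 6 the 120 h list covered more than the 72 h list. The 6 were chosen for a low 72 h length, so this can follow from the choice.

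**Figure D5:**
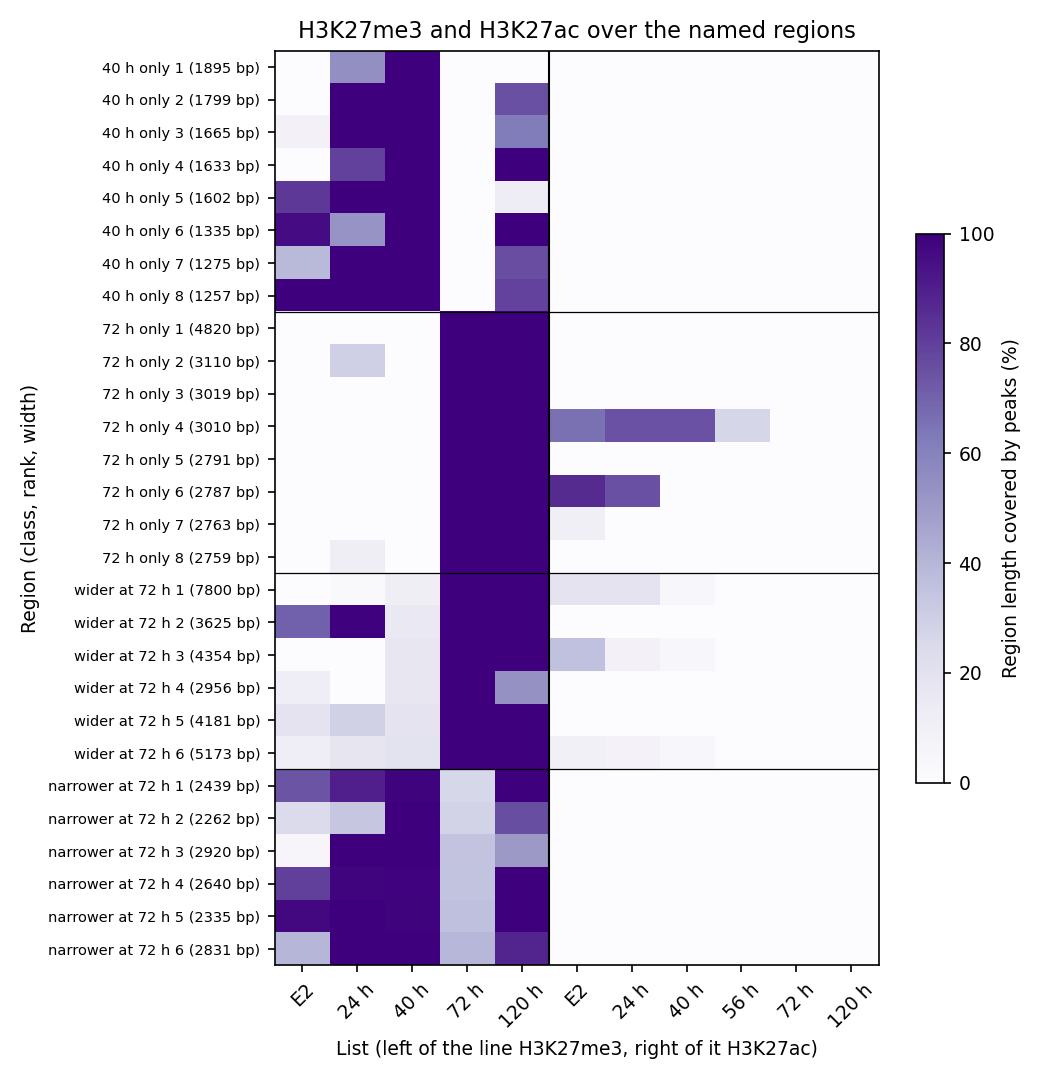
Share of each named region covered by H3K27me3 domains (left of the vertical line) and H3K27ac peaks (right of it) in each list (x axis), from 0% (white) to 100% (dark), for the 8 widest one-list domains of each kind and the 6 shared loci with the largest and smallest ratios (y axis, with widths). H3K27ac appears in 3 of the 8 72 h-only domains and 3 of the 6 loci wider at 72 h, in E2 or lists of withdrawal shorter than 72 h, and in no 40 h-only domain or locus narrower at 72 h.

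Over the whole classes, H3K27ac in E2 was found at 72 h-only domains and at none of the 40 h-only domains. In E2, 75 of 1965 72 h-only domains held an H3K27ac peak (3.82%, 3.01 to 4.76), and 0 of 490 40 h-only domains did, where the limit that 3 counts set is a share of 0.612% and the exact 95% upper bound is 0.750%. The difference was 3.82 points (2.73 to 4.76). Among the 72 h-only domains the withdrawal lists gave 41, 22, 2, 1 and 18 (24, 40, 56, 72 and 120 h). The 40 h-only domains had 0 at 24, 40 and 56 h, 1 at 72 h and 7 at 120 h. The median width of 40 h-only domains was the lower, 326 bp against 460 bp, and the part of width in this difference was not tested. The classes were set by H3K27me3 at 40 h and 72 h, and one lysine cannot carry both marks. Little H3K27ac at 72 h in 72 h-only domains, and at 40 h in 40 h-only domains, can thus follow from the choice. In E2, H3K27me3 was found at 30.2% of 40 h-only and 24.7% of 72 h-only domains. Its part in the E2 difference was not tested. Shared domains held H3K27ac in E2 in 2.06% of cases in the 40 h list (1.60 to 2.60) and in 3.12% in the 72 h list (2.55 to 3.79). Over all widths the 72 h-only share was thus close to that of the shared 72 h domains, with overlapping intervals. These 2 classes differed in median width, 460 bp against 1588 bp. Among domains of 2000 bp or more their shares were 20.5% (9 of 44) and 5.68% (73 of 1286).

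The 703 domains absent in E2 and at 24 h and found at 72 h and 120 h held most of the 72 h-only domains with H3K27ac, 65 in E2 (9.25%, 7.21 to 11.6), 39 at 24 h and 20 at 40 h. None had it at 72 h, where the limit that 3 counts set is 0.427% and the exact 95% upper bound 0.523%. Shared domains of the 72 h list were at 0.281% there, a difference of -0.281 points with an interval that included 0 (-0.534 to 0.278). The group was chosen by H3K27me3 absent in E2 and present at 72 h, and one lysine cannot carry both marks. More H3K27ac in E2 and little at 72 h can thus follow from the choice itself. Of the 44 72 h-only domains of 2000 bp or more, 9 had H3K27ac in E2 (20.5%, 9.80 to 35.3), 7 at 24 h, 5 at 40 h and 0 at 72 h, against 73 of 1286 shared domains of that width in E2 (5.68%, 4.48 to 7.08). The difference in E2 was 14.8 points (5.37 to 28.9). The 44 were chosen for lacking H3K27me3 at 40 h, and 27.3% of them had it in E2, against 96.6% of the 1286. More H3K27ac in E2 can thus follow from the choice here too. Of the 75 domains with H3K27ac in E2, 74 had H3K27me3 at 120 h and 8 had it in E2. Inside those 75, H3K27ac lengths summed to 35.7, 21.8, 13.2, 0.951, 0.183 and 3.57 kb over the 6 lists from E2 to 120 h. The 75 were chosen by H3K27ac in E2 and H3K27me3 at 72 h. A high sum in E2 and a low one at 72 h can therefore follow from this choice too. How much H3K27ac of the whole E2 list was kept in the other lists was not tested, so the fall is not set against a background. Among shared loci, 30 of 477 that were at least 2-fold wider at 72 h had H3K27ac in E2 (6.29%, 4.28 to 8.86), 1 of 171 that were narrower and 69 of 2392 within 2-fold (2.88%, 2.25 to 3.64). H3K27me3 in E2 was found at 72.3% of these wider loci, 66.1% of the narrower and 87.6% of those within 2-fold. Its part in these H3K27ac shares was not tested. Seen from H3K27ac, 13 of the 28791 peaks at 40 h overlapped an H3K27me3 domain of the 40 h list and 67 one of the 72 h list. Of the 24930 H3K27ac peaks at 72 h, 7 overlapped the 40 h list and 11 the 72 h list.

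In position, one-list domains lay both beside and far from the domains of the other list. The median distance to the nearest domain of the other list was 4.73 kb for 40 h-only and 14.15 kb for 72 h-only domains. Within 10 kb lay 268 of 490 (54.7%, 50.2 to 59.2) and 910 of 1965 (46.3%, 44.1 to 48.5), and more than 100 kb away lay 21.0% and 26.8%. The 72 h list is the longer, and its part in these distances was not tested. Runs of domains of 1 class, with gaps of at most 10 kb and no domain of the other list between them, mostly held a single domain. Of 1626 runs of 72 h-only domains, 248 held 2 or more (15.3%) and 54 held 3 or more, and of 468 runs of 40 h-only domains 21 held 2 or more (4.49%) and 1 held 3. The 72 h-only domains are the more numerous, and the part of their number in this was not tested.

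The longest runs were chosen after their values were seen. At chr15:7140873-7170171, 11 of the 72 h-only domains lay in 29299 bp, and H3K27me3 lengths were 0, 225, 0, 8712 and 17525 bp from E2 to 120 h. At chr7:151630027-151651587, 7 domains, among them the widest and the third widest, had lengths of 0, 0, 0, 11788 and 20173 bp. At chr17:12925712-12946093, 7 domains had lengths of 0, 0, 0, 5382 and 8811 bp. No H3K27ac peak lay in any of these 3 stretches in the 6 lists. At each of them the 120 h list covered more than the 72 h list.

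Counted in bins of 1 Mb, 72 h-only domains were densest between 7000001 and 8000000 of chromosome 15. That bin held 21 of them and 0 40 h-only domains, and 4, 7, 5, 25 and 30 H3K27me3 domains in E2 and at 24, 40, 72 and 120 h. Between 151000001 and 152000000 of chromosome 7 there were 15, with 1, 3, 2, 17 and 12 domains in the 5 lists. The second densest bin, 102000001 to 103000000 of chromosome 15, was rich in the mark in every condition, with 64, 45, 44, 57 and 55 domains. It held 18 72 h-only and 5 40 h-only domains and so was also among the 3 bins with most of the latter. The other 2 of those, 74000001 to 75000000 of chromosome 2 and 36000001 to 37000000 of chromosome 17, held 5 40 h-only domains each, beside 4 and 8 72 h-only ones. The 40 h-only domains thus had no bin of their own with more than 5.

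Chromosome X stood apart from the autosomes in both lists. Of its 40 domains at 40 h, 19 were 40 h-only (47.5%, 31.5 to 63.9), where the autosomes ran from 6.57% to 18.1%. Of its 77 domains at 72 h, 57 were 72 h-only (74.0%, 62.8 to 83.4), against 26.6% to 45.7%. The X held 41 domains in E2, 103 at 24 h and 92 at 120 h, so its number differed more between lists than the total did.

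Set beside the other conditions, the 40 h list lay largely inside the 24 h and 120 h lists, and the 72 h list inside the 120 h list. The E2, 24 h, 72 h and 120 h lists overlapped 75.2%, 91.6%, 87.3% and 93.4% of the 40 h domains. Of 72 h domains, the E2, 24 h, 40 h and 120 h lists overlapped 60.7%, 75.2%, 62.0% and 89.9%. In the other direction 59.9% of 24 h domains were found at 40 h and 69.0% at 72 h, and 43.8% and 57.3% of 120 h domains. The E2 list was found at 40 h in 73.2% and at 72 h in 82.1% of its domains. The 72 h list, the longer, thus held the larger share of each of the 3 other lists, E2 included.

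The genes that write, read or remove the mark were mostly marked by H3K4me3 in both conditions. Of 25 genes of the Polycomb machinery, 21 carried the mark at 40 h and 22 at 72 h, again no more than 1 kb from a gene end, where 44.7% and 45.8% of all protein-coding genes did. The gene that differed was Cbx6, a chromodomain gene of Polycomb repressive complex 1, with 0 bp in the 40 h list and 209 bp in the 72 h list. Over all 21631 protein-coding genes, 1.76% had the mark at 72 h and not at 40 h, and 0.670% the reverse. The covered length was longer at 72 h for 16 of the 25 genes and shorter for 6, or 16 and 6 of the 22 marked in either list. Among all 10052 genes marked in either list 74.4% were longer and 25.3% shorter (34.6% and 11.7% with unmarked genes included). In the split of longer and shorter lengths the Polycomb genes were thus near the background of the H3K4me3 lists, while the share marked was above it.

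The core subunits differed among themselves. Ezh2 had 1099, 1020, 1009, 925 and 1685 bp in E2 and at 24, 40, 72 and 120 h, and Eed 1584, 1331, 1575, 1603 and 1745 bp. For both, 40 h and 72 h were close and 120 h was the highest. Suz12 had 583, 588, 896, 1294 and 1583 bp, longer at 72 h than at 40 h. Jarid2, which helps bring the complex to its targets, had 163, 1056, 672, 1508 and 1705 bp. Bmi1, a subunit of Polycomb repressive complex 1, went from 159 to 845 bp between the 40 h and 72 h lists, and Cbx8, which holds a chromodomain that binds the mark, went from 478 to 968 bp. Of the demethylase genes, Kdm6a went from 424 to 306 bp, and Kdm6b was at 0 bp in both. Epop, which binds the complex, was chosen after its values were seen, and its length of 636 bp in the 40 h list against 285 bp in the 72 h list was the largest shortening among the 25. Aebp2 and Cbx7 were at 0 bp in both.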

How the data were processed

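Each deposited file gave the authors' peak coordinates alone (unit: other), without scores or heights. Bowtie2 2.0, BWA, MACS2 2.0, mm9 and mm10 are named in the submitters' processing notes, with no link to single files. Read depths, peak thresholds and how input libraries entered the calling are not given in the sources used here. H3K27me3 and H3K27ac lists were treated as mm9: on chromosome 1 the 40 h H3K27me3 list ends at 197003115, past the last gene of the GRCm38.p6 table at 195291439. H3K4me3 lists were treated as mm10 (64.3% of 40 h peaks within 1 kb of a protein-coding gene end, 9.37% after a shift of 100 kb). Lists of different builds were not compared, so no gene is named for H3K27me3, and no sequence is printed. V5 and AM lists were not used here.

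Chromosomes 1 to 19 and X were used. Overlaps, covered lengths and distances were computed in Python 3.11.15 with NumPy 2.4.6 and SciPy 1.17.1, with code tested on simulated lists. Regions were named by rule: the 8 widest domains in each list only, 6 shared loci with the largest and 6 with the smallest ratio, and 3 bins per direction. The members and gene lists were chosen with earlier results of these data known. As the lists hold no score, width replaced it in 2 of the alternatives.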

Additional observations from a re-analysis of the deposited data

How the results depend on the processing

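The 6 settings other than the fold were 50% of a domain covered, a gap of 1 kb allowed, domains within 3 kb merged, domains above the median width, equal length and chromosome X left out. Each was applied to all 5 H3K27me3 lists. At equal length every list was held to its 3845 widest domains. The 40 h list had that number already, so of the 40 h and 72 h lists only the latter lost domains, its narrowest. At this setting a higher width ratio and fewer loci narrower at 72 h can follow from the cut. The 120 h list of 6927 domains was thus cut as well, and shares found at 120 h were scored against the shorter list. In all 6 the 72 h-only share exceeded the 40 h-only share, the median log2 ratio was above 0, and loci 2-fold wider outnumbered those 2-fold narrower. In all 6, too, 72 h-only domains were the more often found at 120 h and the less often in E2. Sizes did change, in 31 of 56 values, and the cause was not tested. The 40 h-only share was 21.7% with 50% covered, 9.21% with the gap, 10.9% merged, 8.43% above the median width and 21.6% at equal length, and the 72 h-only share 50.7%, 31.6%, 32.3%, 33.0% and 27.4%. At equal length the 2 shares were therefore much closer. The median log2 ratio was 0.22 with the gap, 0.22 merged, 0.12 above the median width and 0.22 at equal length. Loci 2-fold wider numbered 75 above the median width, where 14 were narrower. At equal length 67 were narrower, and at 1.5-fold 835 were wider and 310 narrower. Of 72 h-only domains, 74.4% were found at 120 h with 50% covered, 82.3% with the gap, 88.1% above the median width and 65.6% at equal length, and in E2 21.0%, 27.3% and 31.3% in the first 3 of these. Of 40 h-only domains, 57.6% were found at 120 h merged, 77.2% above the median width and 39.3% at equal length, and in E2 26.1% with 50% covered and 36.4% above the median width. No paired analysis was possible because each condition had 1 library.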
